A study of Mus musculus with 614 samples.

Results

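The cells described here are 68 dendritic cell precursors (pre-DC) of mouse bone marrow, sorted as negative for SiglecH and positive for Ly6C, of 614 single cells in 12 sort gates. They were chosen by their sort label alone and not by any transcript. By the labels they lacked lineage markers, MHC class II, CD172α and B220 on the surface and carried CD11c and Flt3. They came from untreated C57BL/6J mice of 7 to 10 weeks, as did the cells of all gates used below. The 70 SiglecH-Ly6C- pre-DC and the 45 SiglecH+Ly6C+ pre-DC were sorted in the same way except for SiglecH and Ly6C. The 16 blood pre-DC carried the same markers without a division by SiglecH or Ly6C. The 66 common monocyte progenitors (cMoP) were lineage-negative, CD11b-negative and Flt3-negative, positive for CD115 and c-Kit and high in Ly6C. Each cell was captured on a microfluidic chip, and its messenger RNA was copied from the poly(A) end, amplified and sequenced as 1 library. No label names an animal or a pool, so each gate counted as 1 sample, and no difference between gates was tested.

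Pre-DC are the marrow precursors that leave for the tissues and there become conventional dendritic cells (cDC), which present antigen to T cells. Type 1 cells (cDC1) depend on Irf8, Batf3 and Id2 and are specialised in presenting antigen to CD8 T cells, whereas type 2 cells (cDC2) rely in part on Irf4, Klf4, Zeb2 and Notch2 and mainly prime CD4 T cells. In mouse marrow Ly6C marks both monocytes and the pre-DC that mostly give cDC2, while SiglecH marks earlier pre-DC and plasmacytoid dendritic cells (pDC), the interferon-producing relatives of cDC. cMoP give rise to monocytes, which share with some cDC2 the lysozyme gene Lyz2, the lectin gene Cd209a and several chemokine genes.

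Values were TPM, transcripts scaled by length and by the total of the cell, and levels are means over cells of log2(TPM + 1) with their SD over cells. Read depth is unknown from TPM. As a substitute, a cell of this gate had 2892, 4222 and 6127 detected genes (1 TPM or above) as the lowest, median and highest value. The medians were 4177 genes in SiglecH-Ly6C- cells, 4540 in the SiglecH+Ly6C+ gate and 6671 in cMoP, so that cMoP were the richer libraries. The 68 libraries carry a run of numbers that no other gate shares, and a run effect and a gate effect cannot be told apart. Of the 68 cells 57 had Y-linked transcripts without Xist, 4 had both and none had Xist alone. Among the 2278 pairs of these cells the Pearson correlation of log2 values lay between 0.29 and 0.49, and no pair was identical.

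Of the transcripts of the sorted proteins Ly6c2 was on the side of the label, and the others were mixed. Ly6c2, which encodes the Ly6C antigen together with its near-identical neighbour Ly6c1, had a lowest, median and highest value of 0, 1808 and 10494 TPM. It was detected in 94.1% of the cells, against 18.6% of SiglecH-Ly6C- pre-DC. Siglech had a median of 1.18 TPM and a highest value of 1004.9 TPM. It reached 100 TPM in 11.8% of the cells, against 62.2% of SiglecH+Ly6C+ pre-DC. At 1 TPM Siglech was in 51.5% of the cells, in 44.3% of SiglecH-Ly6C- and in 93.3% of SiglecH+Ly6C+ pre-DC. Itgax, which encodes CD11c, was detected in 45.6% of the cells, Flt3 in 61.8%, and Sirpa, which encodes the CD172α used as a negative marker, in 48.5%. Transcripts of MHC class II, another negative marker, were also found and are described below. The protein can be on the surface when the transcript is not captured, and transcripts can precede the protein. Reads of Ly6c1 and Ly6c2, of Ifitm2 and Ifitm3 and of Lyz1 and Lyz2 can be shared between copies, and the split within each pair is uncertain.

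The start regions of 3 marker genes are shown because these genes carry the results below: Cd209a leads the gate, and F13a1 and Wfdc17 are the markers in which a searched motif was found. Each is the 250 bases before a RefSeq transcript start on GRCm38.p6, written 5′ to 3′ on the gene's strand, with the motif in capitals. Cd209a lies at chr8:3748985-3749234 on the minus strand, F13a1 at chr13:37050245-37050494 on the minus strand and Wfdc17 at chr11:83703806-83704055 on the plus strand.
Cd209a: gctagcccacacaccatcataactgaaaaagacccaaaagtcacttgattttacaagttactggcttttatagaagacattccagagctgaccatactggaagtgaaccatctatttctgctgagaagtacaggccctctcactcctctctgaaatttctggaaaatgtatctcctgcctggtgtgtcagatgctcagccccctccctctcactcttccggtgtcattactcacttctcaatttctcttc
F13a1: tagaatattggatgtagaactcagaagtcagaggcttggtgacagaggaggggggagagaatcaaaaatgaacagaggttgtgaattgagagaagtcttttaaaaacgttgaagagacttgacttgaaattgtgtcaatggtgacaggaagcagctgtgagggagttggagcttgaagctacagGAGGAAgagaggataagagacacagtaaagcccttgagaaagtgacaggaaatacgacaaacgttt
Wfdc17: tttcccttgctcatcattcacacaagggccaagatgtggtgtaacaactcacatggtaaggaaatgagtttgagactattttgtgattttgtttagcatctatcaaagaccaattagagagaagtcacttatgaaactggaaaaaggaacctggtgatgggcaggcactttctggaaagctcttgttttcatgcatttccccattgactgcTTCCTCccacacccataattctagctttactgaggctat
The motif is GAGGAA, the core bound by PU.1 (encoded by Spi1), the factor of the myeloid lineage. It lay at bases -66 to -61 from the F13a1 start, and on the opposite strand, read as TTCCTC, at bases -39 to -34 from the Wfdc17 start. F13a1 has another RefSeq window at chr13:37049214-37049463, and it held no match. On either strand GAGGAA was in the windows of 2 of the 8 markers and in 23.3% of 32851 windows of the same length over all genes. TTGCNNAA, a motif of C/EBP factors, was in 9.56% of all windows. A tandem of GAAA with 2 bases between the copies, a motif of interferon regulatory factors, was in 2.98%. Neither was in a window of the 8 markers.

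Cd209a was the transcript that most set this gate above all others. It encodes a C-type lectin of the DC-SIGN family on cDC2 and monocyte-derived dendritic cells, and the gene lies at chr8:3743397-3748984 (GRCm38, minus strand). Its lowest, median and highest values were 0, 2302 and 18507 TPM, with 1 cell at 0. At 100 TPM or more it was in 57 of 68 cells (83.8%, exact Clopper-Pearson 95% interval 72.9 to 91.6). The same share was 48.9% in SiglecH+Ly6C+ pre-DC (33.7 to 64.2), 43.8% in blood pre-DC (19.8 to 70.1), 10.0% in SiglecH-Ly6C- pre-DC (4.12 to 19.5) and 3.03% in cMoP (0.369 to 10.5). These intervals cover counting of cells only and do not compare the gates, each of which is 1 sample. Cd209a is also a marker proposed for this gate with its levels known, so these shares are a description. The mean level was 9.97 ± 3.49 (SD, n = 68 cells), and the next gates were blood pre-DC at 6.10 ± 5.05 and SiglecH+Ly6C+ pre-DC at 5.99 ± 4.70. pDC followed at 2.72 ± 3.92, and the remaining 8 gates had 1.73 or less. Individual cells overlapped: the highest SiglecH-Ly6C- cell reached 14429 TPM, within the range of the cells described here.

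Klf4, a zinc finger factor that cDC2 need, had 0, 153 and 1031.2 TPM as its lowest, median and highest values. It reached 100 TPM in 64.7% of the cells (52.2 to 75.9), close to the 57.8% of SiglecH+Ly6C+ pre-DC (42.2 to 72.3) and above the 28.6% of SiglecH-Ly6C- pre-DC (18.4 to 40.6). Zeb2, a repressor needed by monocytes, cDC2 and pDC, had a median of 142 TPM here, 149 TPM in SiglecH+Ly6C+ pre-DC and 160 TPM in cMoP, but 0 TPM in SiglecH-Ly6C- pre-DC. Klf4 and Zeb2 were thus shared by the Ly6C+ pre-DC gates. Irf4, the factor most tied to cDC2, was low: its median was 0 TPM and it was detected in 26.5% of the cells, against 4.29% of the SiglecH-Ly6C- gate and 4.44% of the SiglecH+Ly6C+ gate. Notch2, a receptor for the cDC2 of spleen and gut, was lower here than in SiglecH-Ly6C- pre-DC, with medians of 13.1 and 74.2 TPM.

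Over the list of 20 cDC2 genes, 14 were higher, 5 lower and 1 equal against SiglecH-Ly6C- pre-DC, with a median difference of 0.68 in mean log2(TPM + 1). Differences of 2 or more were called. By this rule 5 of the 20 were higher (Cd209a, Zeb2, Tmem176b, Klf4 and Cd300a) and 1 was lower (Notch2). Among all 8348 genes that passed the filter, detection in 20% of the cells of either gate, 1.22% were higher and 0.862% lower, and the median difference was -0.01. The list was carried by few genes. Ltb, the lymphotoxin gene of splenic cDC2, and Clec4a4, the DCIR2 lectin, were listed at 0 in all 68 cells, and Mgl2, a lectin of skin cDC2, had a mean of 0.14 ± 0.44. Clec10a, a lectin of cDC2 and macrophages, reached 100 TPM in 14.7% of the cells.

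**Figure D1:**
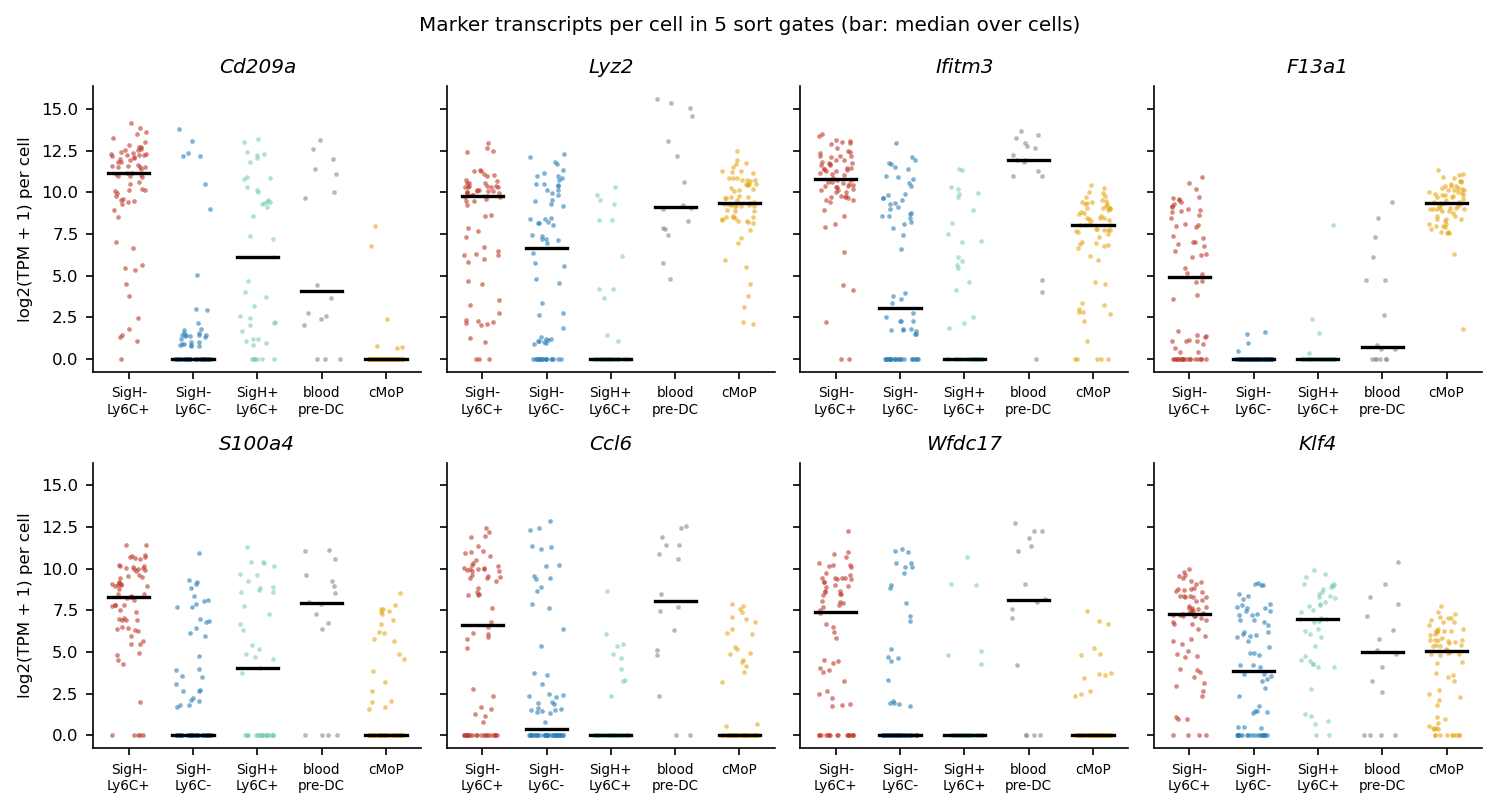
Levels of the 8 marker transcripts per cell, as log2(TPM + 1) on the vertical axis, in 5 sort gates on the horizontal axis; each point is 1 cell and each bar the median over cells. The Cd209a median of SiglecH-Ly6C+ pre-DC, 2302 TPM, stands above the other gates, Lyz2 and F13a1 range from 0 to the levels of cMoP, and the blood pre-DC are similar or higher for Ifitm3, Ccl6 and Wfdc17.

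The monocyte-type markers were present in most cells at levels that varied widely. Lyz2, which encodes lysozyme M (chr10:117277331-117282321, minus strand), had 0, 868.4 and 7920 TPM as its lowest, median and highest values, and Lyz1 stayed below 1 TPM in all 68 cells. The median of Lyz2 was 645.3 TPM in cMoP, 562 TPM in blood pre-DC, 101 TPM in SiglecH-Ly6C- pre-DC and 0 TPM in SiglecH+Ly6C+ pre-DC. Cells low in Lyz2 were more frequent here than in cMoP, with 67.6% and 89.4% of the cells at 100 TPM. The mean was 7.91 ± 3.64, between 5.45 ± 4.48 in SiglecH-Ly6C- pre-DC and 9.10 ± 2.198 in cMoP. The order of this gate and cMoP turned when the mean TPM was taken before the logarithm (0.049 in place of -1.19).

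Ifitm3, an interferon-induced membrane protein that restricts viruses (chr7:141009586-141010770, minus strand), had 0, 1799 and 11436 TPM as its lowest, median and highest values. It reached 100 TPM in 91.2% of the cells (81.8 to 96.7), against 72.7% of cMoP, 42.9% of the SiglecH-Ly6C- gate and 26.7% of the SiglecH+Ly6C+ gate. Its mean of 10.32 ± 2.74 was within the spread of the 10.54 ± 3.97 of blood pre-DC. Ifitm2, its neighbour, had a median of 642.3 TPM, close to the 708 TPM of cMoP, while SiglecH-Ly6C- and SiglecH+Ly6C+ pre-DC had a median of 0 TPM.

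F13a1, which encodes the A chain of coagulation factor XIII made by monocytes (chr13:36867178-37050244, minus strand), differed widely between the cells of the gate. Its lowest, median and highest values were 0, 28.9 and 1910 TPM, and 27 of 68 cells reached 100 TPM (39.7%, 28.03 to 52.3). In cMoP the same values were 2.45, 662.5 and 2560 TPM, with 97.0% of the cells at 100 TPM. It was close to absent from the 70 SiglecH-Ly6C- pre-DC, where the highest cell had 2.08 TPM, and 1 of the 45 SiglecH+Ly6C+ pre-DC reached 100 TPM. Some cells of this gate thus had F13a1 at the cMoP level and others none.

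S100a4, a calcium-binding protein of motile cells (chr3:90603771-90606045, plus strand), had 0, 320 and 2770 TPM as its lowest, median and highest values. It was at 100 TPM in 72.1% of the cells (59.9 to 82.3), in 68.8% of blood pre-DC (41.3 to 89.0), in 35.6% of SiglecH+Ly6C+ pre-DC (21.9 to 51.2) and in 13.6% of cMoP (6.43 to 24.3). The high S100a4 was therefore one of the points at which this gate and cMoP parted. The chemokine gene Ccl6 (chr11:83587882-83593087, minus strand) had 0, 98.8 and 5493 TPM, and the neighbouring Wfdc17 (chr11:83703991-83706268, plus strand), a secreted protein of macrophages, 0, 171.6 and 4830 TPM. Both were highest in blood pre-DC, with medians of 278 and 275 TPM, and both had a median of 0 TPM in SiglecH+Ly6C+ pre-DC and in cMoP. Wfdc17 was also in an earlier progenitor, with a mean of 5.83 ± 4.63 in lymphoid-primed multipotent progenitors against 5.72 ± 4.04 here.

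Over the list of 25 monocyte genes, the shift against the other pre-DC was broad. Against SiglecH-Ly6C- pre-DC 23 were higher and 1 lower, with a median difference of 2.15, and 14 were higher by 2 or more. Against SiglecH+Ly6C+ pre-DC 23 were higher and 1 lower, with a median of 1.99, and 12 were higher by 2 or more. In that comparison 0.818% of the 8683 genes past the filter were higher and 0.415% lower by as much, and the median of all genes was -0.13. The genes higher than in SiglecH-Ly6C- pre-DC by 2 or more include Cx3cr1 (4.04), Fcgr3 (2.83) and Csf1r (2.60). Fcgr3 had a median of 7.80 TPM here, and all 3 are among the microglia and macrophage genes described below. The list holds 6 of the 8 markers, so its direction partly repeats them. Among the others Ccr2, the chemokine receptor by which monocytes leave the marrow, was in every cell, with 3.28, 815.6 and 5025 TPM as its lowest, median and highest values. Its median was 589 TPM in SiglecH-Ly6C-, 209 TPM in SiglecH+Ly6C+ pre-DC and 186 TPM in cMoP. Ms4a6c, a membrane gene of monocytes and pre-DC, had 13.96, 1103 and 4323 TPM. Fn1, which encodes fibronectin, reached 100 TPM in 29.4% of the cells and in 0 of the 70 SiglecH-Ly6C- pre-DC, which allows a share of up to 4.29% (3 cells of 70).

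Other monocyte genes were low or absent. Vcan, a matrix proteoglycan of classical monocytes, was listed at 0 in all 68 cells. Cd14, the co-receptor for lipopolysaccharide, was detected in 13.2% of the cells and never reached 100 TPM. Cebpb, a factor of monocyte survival, had a highest value of 50.4 TPM. Csf1r, which encodes the CD115 used to sort cMoP, had a median of 1 TPM and reached 100 TPM in 19.1% of the cells, against 30.3% of cMoP.

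Against SiglecH-Ly6C- pre-DC the cDC1 genes were the main group on the low side. Of 11 measured genes of the list, 10 were lower and 7 of these by 2 or more, with a median difference of -2.68. Id2, the inhibitor of E proteins that cDC1 need, had 0, 1.78 and 4479 TPM as its lowest, median and highest values here, against a median of 2804 TPM in SiglecH-Ly6C- pre-DC. It reached 100 TPM in 23 of 68 cells and in 63 of 70 cells of the other gate, so the gates overlapped in a minority of cells. Batf3, a factor of cDC1, reached 100 TPM in 5 of 68 cells against 35 of 70. Irf8, the factor that both cDC1 and monocyte fates use, had a median of 60.1 TPM, against 745 TPM in SiglecH-Ly6C-, 642.4 TPM in SiglecH+Ly6C+ pre-DC and 284 TPM in cMoP. Its mean of 5.10 ± 3.69 was below the mean of all 3. Clec9a, the cDC1 receptor for dead cells, did not follow the list, with 3.29 ± 3.65 here and 3.64 ± 3.65 in SiglecH-Ly6C- pre-DC.

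The largest differences against SiglecH-Ly6C- pre-DC included the sort marker genes, Ly6c2 (8.82) on the high side and H2-Ab1 (-7.98), H2-Eb1 (-7.04) and H2-Aa (-6.83) on the low side. Without these, the 10 largest on the high side were Cd209a (8.25), Cd7 (6.48), Ifitm2 (5.73), Ifitm3 (5.44), S100a4 (5.13), Zeb2 (4.88), F13a1 (4.41), Runx2 (4.11), Ms4a6b (4.06) and Cx3cr1 (4.04). The size of such differences depends on the cells at or near 0. With the mean TPM taken before the logarithm Cd209a was higher by 2.57, Ifitm3 by 2.06, Klf4 by 1.31 and Lyz2 by 0.79. Against SiglecH+Ly6C+ pre-DC the difference for Cd209a was then 1.47 in place of 3.99. Cd7, a surface protein of lymphoid cells and of pDC precursors, and Runx2, a factor of pDC migration, are on the pDC list and not on the monocyte list. Both had a higher mean in SiglecH+Ly6C+ pre-DC (9.33 ± 2.32 and 7.60 ± 2.38, against 8.30 ± 3.81 and 5.62 ± 3.24 here). Cd7 was listed at 0 in all 66 cMoP. The 10 largest on the low side were Id2 (-6.43), Ifi205 (-5.39), Cd74 (-5.18), Cd24a (-4.43), Batf3 (-4.32), Ckb (-4.22), Plbd1 (-3.98), Sod1 (-3.72), Snx3 (-3.63) and Gatm (-3.58).

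MHC class II genes were intermediate although all pre-DC were sorted as negative for the protein. The invariant chain gene Cd74 had 0, 226 and 13041 TPM as its lowest, median and highest values. Its median was 4410 TPM in SiglecH-Ly6C-, 0 TPM in SiglecH+Ly6C+ pre-DC and 6.64 TPM in cMoP. H2-Aa, the α chain of the antigen-presenting dimer, reached 100 TPM in 35.3% of the cells, H2-Ab1 in 29.4% and H2-Eb1 in 22.1%, against 94.3%, 95.7% and 85.7% of SiglecH-Ly6C- pre-DC. Ciita, the coactivator that switches these genes on, reached 100 TPM in 7.35%. H2-DMa, which helps to load peptides, did not share the pattern, with medians of 1088 TPM here, 942.3 TPM in SiglecH-Ly6C- and 1063 TPM in SiglecH+Ly6C+ pre-DC. Over the 10 genes of the list 9 were lower than in SiglecH-Ly6C- pre-DC (median -2.00) and 8 higher than in SiglecH+Ly6C+ pre-DC (median 1.25).

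Against SiglecH+Ly6C+ pre-DC, which share the Ly6C label, the pDC genes were the low group. Of 21 genes of the list, 18 were lower and 7 of these by 2 or more, with a median of -1.58. Siglech itself is a sort marker and no finding. Tcf4, the E protein that pDC need, had 0, 59.98 and 1433 TPM as its lowest, median and highest values, against a median of 585 TPM and a lowest value of 9.56 TPM in the SiglecH+ gate. Spib, an Ets factor of pDC, had a median of 0 TPM against 1.11 TPM. Cox6a2, a respiratory chain gene typical of pDC, was listed at 0 in all 68 cells. The step was partial: Tcf4 still stood above the 1.94 TPM median of SiglecH-Ly6C- pre-DC, and Runx2 had medians of 79.8 TPM here, 391.8 TPM in the SiglecH+ gate and 0.205 TPM in the double-negative gate. Among the genes on the low side outside the list were Tex2 (-3.79), Cd200r1 (-3.21), Pafah1b3 (-2.68), Gpr171 (-2.61) and Csf2rb2 (-2.61). The pDC list was not low against the other gates. Against SiglecH-Ly6C- pre-DC 12 of 21 were higher and 8 lower (median 0.05), with 4 higher by 2 or more. Against cMoP 13 were higher and 7 lower (median 0.24), with 6 higher by 2 or more, Siglech among them. Of all genes past the filter 1.22% and 1.2% were higher by as much.

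Against cMoP the granule genes separated the gates. All 12 genes of the list were lower and 10 of these by 2 or more, with a median of -7.35. Mpo, the myeloperoxidase of primary granules, was at most 0.39 TPM in the 68 cells and at least 916.8 TPM in every cMoP. Elane and Ctsg, serine proteases of the same granules, were listed at 0 in all 68 cells, with medians of 3525 and 1038.2 TPM in cMoP. Prtn3, another of these proteases, reached 100 TPM in 2.94% of the cells and in 98.5% of cMoP. Mpo, Elane and Ctsg thus did not overlap between the gates, while Prtn3 did in a few cells. The share of all genes without overlap was not counted. In this comparison 1.2% of 10549 genes were higher and 16.5% lower by 2 or more, and the median of all genes was -0.80. That median is on the side of the gate with fewer genes per cell, and the part of the difference in genes per cell in these counts was not tested. The low granule genes were not particular to this gate. The mean of the granule list per cell had a median of 0.09 here, 7.40 in cMoP and 0 in each other marrow pre-DC gate.

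On the high side against cMoP were Cd209a (9.68), Rnase6 (6.49), Lsp1 (5.91), S100a4 (5.88), S100a6 (5.81), Crip1 (5.81), Rnd3 (5.34), Ifi30 (5.16) and Wfdc17 (4.85), beside Cd7, which was at 0 in cMoP. Lsp1, an actin-binding protein of leukocytes, and Crip1, a LIM protein, were at 100 TPM or more in all 68 cells, with medians of 4638 and 4613 TPM. The monocyte list was mixed, with 16 of 25 higher, 9 lower and a median of 0.99. Lower by 2 or more were F13a1 (-4.75, and -1.85 with the mean TPM taken before the logarithm), Fcgr3 (-4.42) and Csf1r (-2.11), the last a sort marker of cMoP. Higher by 2 or more were 10, among them Lgals3 (4.57), which encodes galectin-3, and Ctss (3.43), which encodes cathepsin S, the protease that trims the invariant chain. Of the 20 cDC2 genes 12 were higher and 6 lower, with a median of 0.15, and 2 were higher by 2 or more, Cd209a and Klf4.

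**Figure D2:**
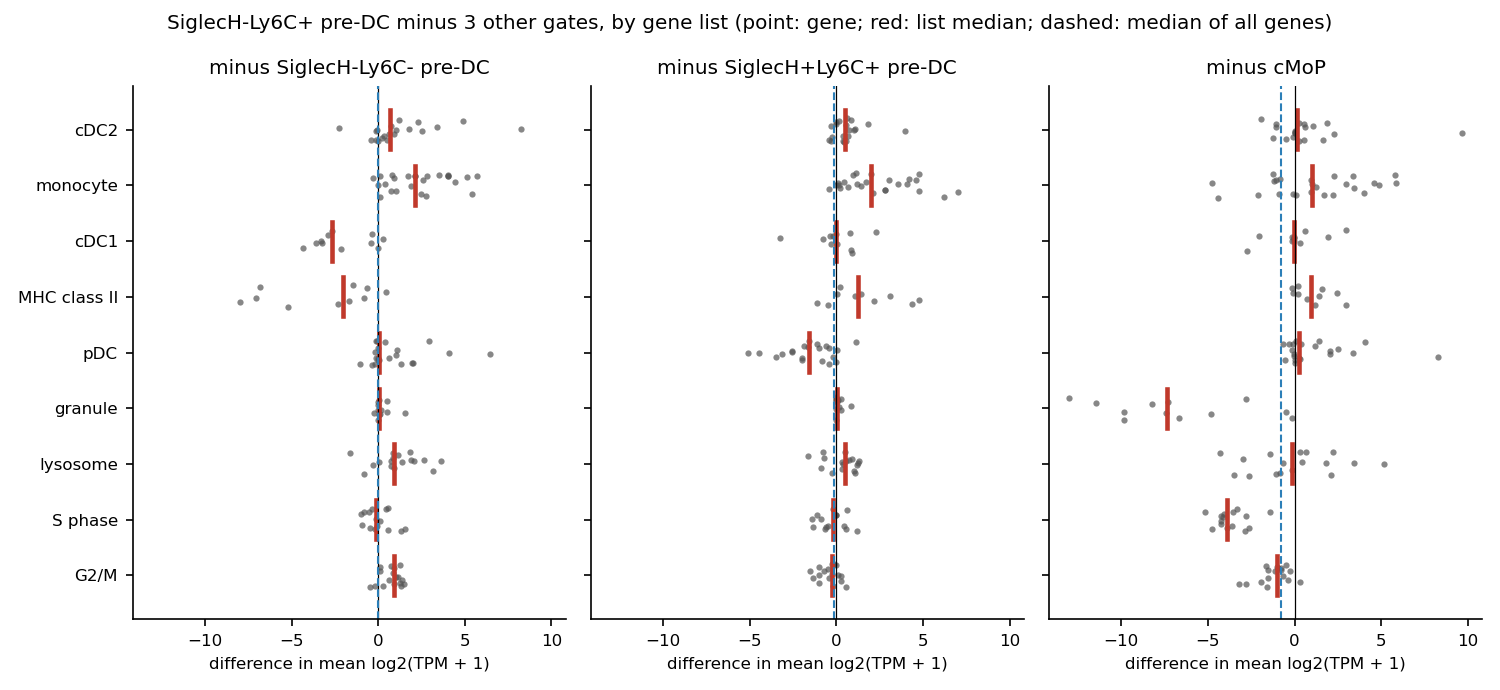
Differences in mean log2(TPM + 1) between SiglecH-Ly6C+ pre-DC and 3 other gates, 1 panel per gate, on the horizontal axis, for 9 gene lists on the vertical axis. Each point is 1 gene, each red bar the median of a list and the dashed line the median of all genes past the filter. The monocyte list lies to the right in all panels (2.15, 1.99 and 0.99), the cDC1 and MHC class II lists to the left against SiglecH-Ly6C- pre-DC, and the granule and S phase lists to the left against cMoP.

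The S100 and annexin genes, calcium-binding proteins of the cell cortex and of vesicles, included several with their highest gate mean here, among them S100a4, S100a6, S100a10, S100a11, Anxa5 and Anxa6. Of 16 genes 14 were higher than in SiglecH-Ly6C- pre-DC (median 0.47) and 15 higher than in SiglecH+Ly6C+ pre-DC (median 0.67). Against cMoP 8 were higher and 8 lower (median 0.01). Among all genes past the filter 4111 of 8348 were higher than in SiglecH-Ly6C- pre-DC (median -0.01) and 3469 of 8683 than in SiglecH+Ly6C+ pre-DC (median -0.13). Only 1637 of 10549 were higher than in cMoP (median -0.80), so an even split there lay above that of all genes. S100a11 had 46.5, 2108 and 8356 TPM as its lowest, median and highest values, and S100a6 1.71, 805 and 3854 TPM. S100a8 and S100a9, the alarmin subunits of neutrophils and inflammatory monocytes, had means of 0.40 ± 1.07 and 0.17 ± 0.70. The alarmins were thus not among the high members.

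Of 17 lysosome genes 14 were higher than in SiglecH-Ly6C- pre-DC (median 0.94) and 12 higher than in SiglecH+Ly6C+ pre-DC (median 0.50). Against cMoP 8 were higher and 9 lower (median -0.15). The medians of all genes in these comparisons were -0.01, -0.13 and -0.80, and 1637 of 10549 genes were higher than in cMoP. Ifi30, the thiol reductase of antigen processing, had 0, 594 and 2663 TPM as its lowest, median and highest values, against medians of 78.8 TPM in SiglecH-Ly6C-, 406 TPM in SiglecH+Ly6C+ pre-DC and 3.04 TPM in cMoP. Ctsh, an aminopeptidase of lysosomes, had a median of 865.3 TPM and its highest gate mean here (9.08 ± 2.47). Cst3, the cystatin that marks dendritic cells, was in every cell, with 431.9, 3549 and 11205 TPM.

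Beside Cd209a few genes were above every other gate by a wide margin. Of 2389 genes present in 50% or more of the cells, 127 had their highest mean here and 14 of these by 1 or more over the next gate. With this gate chosen by its label, some genes are highest in it whatever the order of gates, so this is a description. After Cd209a (margin 3.87) came Zyx (2.2), Cx3cr1 (1.73), Tax1bp3 (1.67), Psme2b (1.29), Ifi30 (1.27), Fcrls (1.16), Gvin1 (1.13), Dusp22 (1.09) and S100a4 (1.07). Zyx encodes zyxin, a protein of focal adhesions, and had 0, 481.95 and 2223 TPM as its lowest, median and highest values, against a next gate mean of 5.58. Cx3cr1, the fractalkine receptor of monocytes and macrophages, had a median of 24.8 TPM and reached 100 TPM in 32.4% of the cells, against 17.8% in the next gate, SiglecH+Ly6C+ pre-DC. Fcrls stood out at a low level only, with a median of 1.18 TPM.

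Within the gate Cd209a and Lyz2 were high together in most cells. Cd209a and Lyz2 together reached 100 TPM in 39 of 68 cells (57.4%, 44.8 to 69.3), and the product of the single shares is 56.7%. Another 18 cells had Cd209a alone, 7 had Lyz2 alone and 4 had neither. At 10 TPM both were in 73.5% of the cells, where the product is 73.7%, and at 1 TPM in 94.1%, where it is 94.2%. Lyz2 and F13a1 were both at 100 TPM in 24 cells (35.3%, 24.1 to 47.8), where the product is 26.9%. Lyz2 was thus high in 24 of the 27 cells with F13a1 and in 22 of the 41 without. Lyz2 and Ccl6 were together in 29 cells (42.6%, 30.7 to 55.2), where the product is 33.8%, so that Lyz2 was high in 29 of the 34 cells with Ccl6 and in 17 of the 34 without. Lyz2 and Tcf4 were together in 16 cells (23.5%, 14.1 to 35.4), where the product is 27.9%. No test of these pairs was made.

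Of the 8 markers a cell had a median of 5 at 100 TPM or more, with a lowest value of 1 and a highest of 8. In 33 cells (48.5%) 6 or more were at that level, against 3 of 70 SiglecH-Ly6C- pre-DC, 0 of 45 SiglecH+Ly6C+ pre-DC, 2 of 66 cMoP and 6 of 16 blood pre-DC. The markers were proposed for this gate with its levels known, so these counts describe it. The blood pre-DC, which were not divided by Ly6C, came closest.

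Correlations over the 68 cells are descriptions, because the cells share a run and their number of animals is unknown. Over the 28 pairs of markers Spearman's rho lay between -0.25 and 0.51 with a median of 0.11, so the 8 markers did not form 1 block. On the positive side Cd209a went most with Ifitm3 (0.51) and Ifitm2 (0.50), then with Lrrk2 (0.40), Ahcyl2 (0.38), Tep1 (0.37), Nol12 (0.37), Kcne3 (0.37), Irf4 (0.35), Ccl9 (0.34) and Mapkapk2 (0.34). Among the genes most positively related to Lyz2 were Anxa1 (0.43), Neil3 (0.42), Dck (0.41), Utp3 (0.41), Arhgap26 (0.39), Igsf6 (0.39), Ppp1r10 (0.39), Coa6 (0.39) and Ccl6 (0.39). The largest negative values for Cd209a were with Atp2a2 (-0.55) and Gpr34 (-0.53), and for Lyz2 with Net1 (-0.49). Ifitm3 ran against Irf8 (-0.56) and Tcf4 (-0.42), and Lyz2 against Tcf4 (-0.39). These values were picked from many pairs of sparse transcripts, and the weaker ones are no finding.

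**Figure D3:**
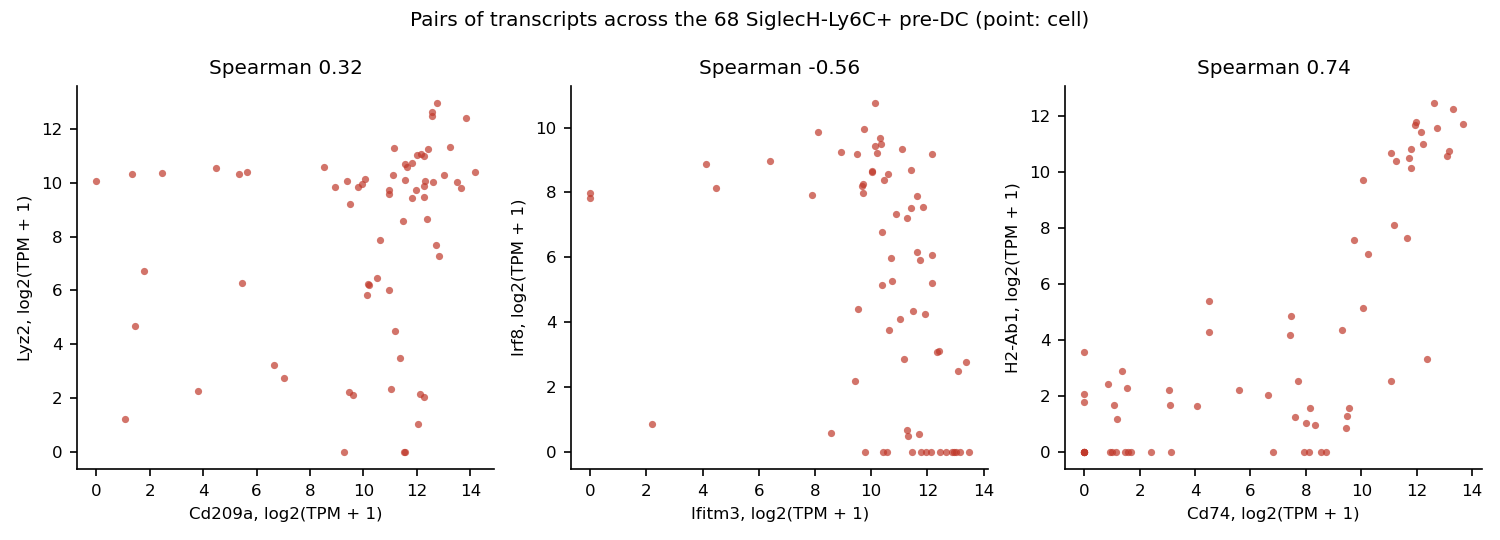
Pairs of transcripts across the 68 SiglecH-Ly6C+ pre-DC, as log2(TPM + 1) on both axes, with 1 point per cell. Cd209a against Lyz2 shows most cells high in both with cells along each axis (Spearman 0.32), Irf8 is low or 0 in many of the cells highest in Ifitm3 (-0.56), and H2-Ab1 is high where Cd74 is high (0.74).

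The MHC class II genes varied together more than the 8 markers did. The 10 pairs among Cd74, H2-Aa, H2-Ab1, H2-Eb1 and Ciita had rho between 0.48 and 0.75 with a median of 0.66. Cd74 went with H2-Aa at 0.74, H2-Ab1 at 0.74, H2-Eb1 at 0.72 and Ciita at 0.60, and the nearest gene outside the MHC class II pathway, Cysltr1, was at 0.43. A stretch of cells with all these transcripts high stood beside cells with none. Cd209a did not follow them (0.13 with Cd74), nor did Lyz2 (0.08), and the mean of the MHC class II list went with that of the monocyte list at 0.02. Cells rich in MHC class II transcripts were therefore found with and without high Cd209a and Lyz2.

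**Figure D4:**
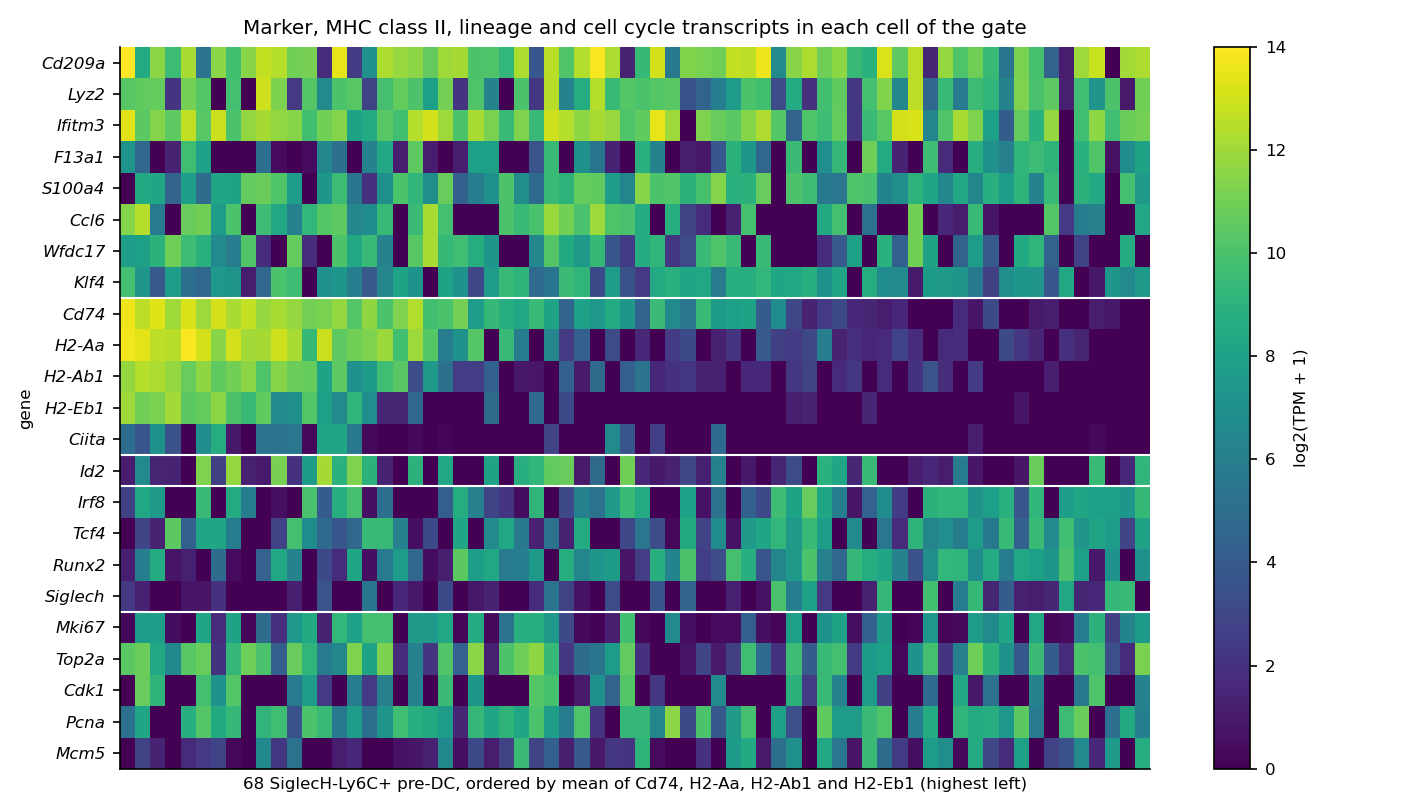
Heat map of log2(TPM + 1) for 23 transcripts (vertical axis) in each of the 68 cells (horizontal axis), ordered by the mean of Cd74, H2-Aa, H2-Ab1 and H2-Eb1 with the highest at the left; the colour bar runs from 0 to 14. Cd209a and Ifitm3 are bright along the whole order, the MHC class II genes only at the left, and F13a1, Ccl6, Wfdc17 and Id2 are high in some cells and at 0 in others along it.

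Other transcripts with a wide spread included proliferation genes. Among genes in 30 to 70% of the cells the highest SD were those of Ccl6 (4.68), Smc2 (4.38), Cks2 (4.36), Id2 (4.29), Vdac3 (4.28), Capns1 (4.27), Ccl9 (4.26), Ech1 (4.23), Akr1b3 (4.21) and Pdlim1 (4.21). Smc2 encodes a condensin subunit and Cks2 a partner of cyclin-dependent kinases. In 25 of 68 cells 5 or more of 17 G2/M genes were at 100 TPM, and in 13 cells none. For 15 S phase genes these counts were 17 and 11 cells. In cMoP 61 of 66 cells had 5 or more S phase genes and 33 had 5 or more G2/M genes, and in blood pre-DC 0 of 16 had either. Of the S phase list 15 of 15 were lower than in cMoP (median -3.93) and 9 of 15 lower than in SiglecH-Ly6C- pre-DC (median -0.14). Of the G2/M list 15 of 17 were higher than in SiglecH-Ly6C- pre-DC (median 0.92), 13 of 17 lower than in SiglecH+Ly6C+ pre-DC (median -0.25) and 16 of 17 lower than in cMoP (median -1.04). Among all genes past the filter 5214 of 8683 were lower than in SiglecH+Ly6C+ pre-DC (median -0.13). Against cMoP 8912 of 10549 were lower (median -0.80). The G2/M medians against these gates were thus near those of all genes. In no comparison with a pre-DC gate did a member of either list differ by 2 or more. Mki67, the proliferation antigen, had 0, 24.6 and 951.6 TPM, with 44.1% of the cells at 100 TPM, and the means of the S and G2/M lists per cell went together (0.45).

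Immediate-early genes are switched on quickly by growth factors, stress and the handling of tissue, and interferon-induced genes by antiviral signals. Of 14 immediate-early genes 7 were higher and 7 lower than in SiglecH-Ly6C- pre-DC (median 0.09), 14 were higher than in SiglecH+Ly6C+ pre-DC (median 0.85) and 11 higher than in cMoP (median 1.15). Btg2, an antiproliferative gene, had 0.84, 351 and 2016 TPM as its lowest, median and highest values. Of 15 interferon-induced genes 11 were higher than in SiglecH-Ly6C- pre-DC (median 0.33), 13 higher than in SiglecH+Ly6C+ pre-DC (median 0.29) and 10 higher than in cMoP (median 0.21). The medians of all genes in these comparisons were -0.01, -0.13 and -0.80. Ifit1, Ifit2, Ifit3 and Isg15, which interferon induces in most cells, had means of 0.40 or less in spite of the high Ifitm2 and Ifitm3. Ifi27l2a was the member higher than in SiglecH-Ly6C- pre-DC by 2 or more (3.17), with a mean of 5.98 ± 3.84.

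A group of microglia and tissue macrophage genes was found at very low levels in many cells of this gate. Searching genes present in 50% or more of the cells gave 2977. After the exclusions 3 of those with a 90th percentile under 20 TPM were in under 10% of each other marrow pre-DC gate: C1qb, a complement subunit of macrophages, Cd81, a tetraspanin, and Fcrls, a receptor of microglia. A list of 17 such genes, put together after these values were seen, was then described. At 1 TPM or more C1qb was in 72.1% of the cells, P2ry12 in 73.5%, Fcgr3 in 83.8%, Cd81 in 58.8%, Fcrls in 55.9%, C1qa in 22.1% and C1qc in 17 of 68 cells. In the SiglecH-Ly6C- gate and in the SiglecH+Ly6C+ gate C1qa, C1qb, C1qc, Fcrls and Fcgr3 were at 1 TPM in 0 cells. At 100 TPM C1qa, C1qb, C1qc, Fcrls and Cd81 were in 0 of the 68 cells, which allows up to 4.41% (3 cells of 68), and P2ry12 was in 4.41%. Granulocyte-macrophage progenitors (51 cells) also had the complement genes at a low level, with C1qa in 43.1%, C1qb in 66.7% and C1qc in 58.8% at 1 TPM and none at 100 TPM. So did the pre-pro-B gate, a lymphoid gate of 30 cells. It had the highest gate means of C1qa and C1qb, 1.03 and 1.57, against 0.36 and 1.56 here. In cMoP the complement genes, P2ry12 and Fcrls were at 1 TPM in 0 cells, but Cd81 was in 66.7% and Fcgr3 in all. At 100 TPM Fcgr3 was in 69.7% of cMoP and in 1.47% of the cells here, and Cd81 was in 22.7% of cMoP. Fcgr3 and Cd81 were thus not limited to low levels in cMoP. The low levels were not particular to this gate for C1qa, C1qb and C1qc.

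The median was 1.41 TPM for C1qb, 1.82 TPM for P2ry12, 7.80 TPM for Fcgr3 and 1.18 TPM for Fcrls. Siglech, which microglia also express, was at 1 TPM in 51.5% of the cells with a median of 1.18 TPM. Cx3cr1 and Csf1r were on this list too, and reached 100 TPM in 32.4% and 19.1% of the cells, so some cells had them far above the level of the other genes. Of the macrophage list of 12 genes, 8 were higher and 2 lower than in SiglecH-Ly6C- pre-DC, 9 were seen and Vcam1, Marco and Axl were at 0 in all 68 cells. The sum over that list had a lowest, median and highest value of 0, 7.45 and 1291 TPM, against 0, 4.59 and 679.3 TPM in SiglecH-Ly6C- pre-DC, 0, 8.5 and 150 TPM in SiglecH+Ly6C+ pre-DC and 0, 10.4 and 256 TPM in cMoP. These libraries carry a run of numbers of their own, and whether transcripts at about 1 TPM came from these cells or from other libraries sequenced alongside was not tested. The part of these low levels in the results for Siglech, Cx3cr1, Csf1r, Fcgr3 and the 8 markers was not tested. The 8 markers had medians of 28.9 TPM or more, but some cells had them at low levels. F13a1, for example, was in 46 cells at 1 TPM, in 38 at 10 TPM and in 27 at 100 TPM.

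**Figure D5:**
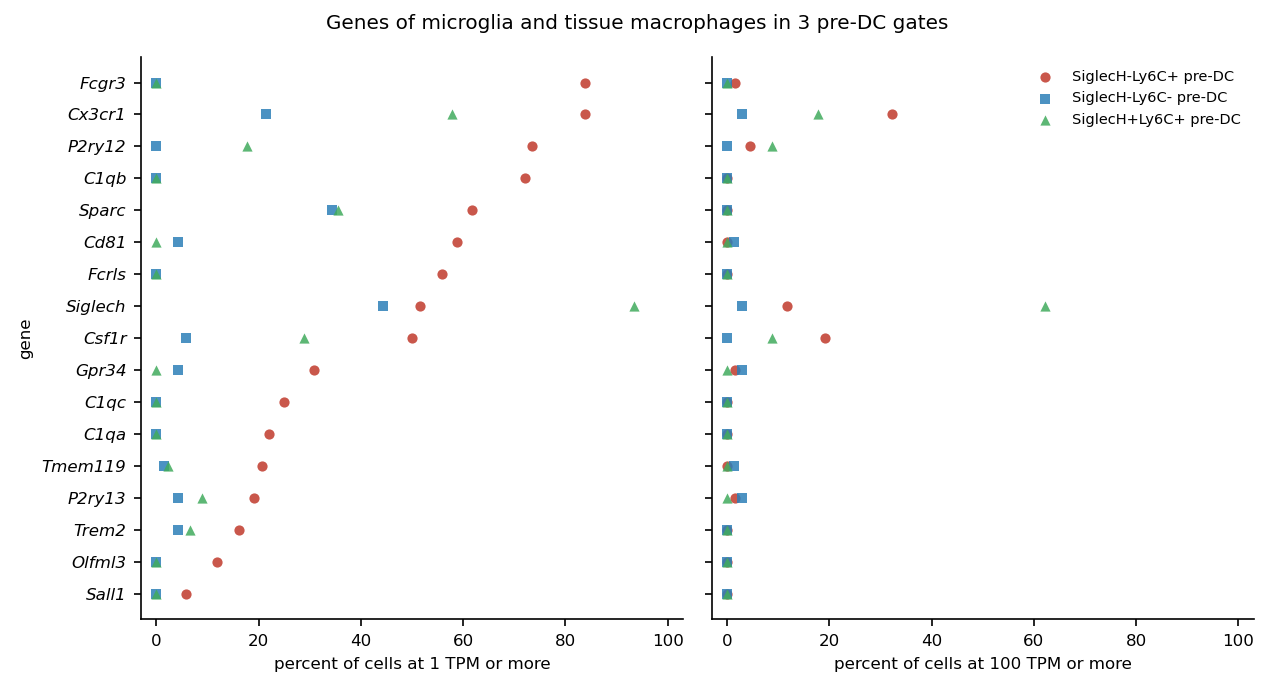
Share of cells (horizontal axis, percent) with 17 microglia and macrophage genes (vertical axis) at 1 TPM or more, left, and at 100 TPM or more, right, in 3 marrow pre-DC gates shown by colour and shape. At 1 TPM the SiglecH-Ly6C+ gate leads for most genes, with C1qb at 72.1%, and at 100 TPM the complement genes are at 0 in all 3 gates.

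Most lists of other cell types had low sums, with the early lymphoid list as an exception. Of 13 neutrophil genes 10 were seen, 1 of them in 50% or more of the cells, and their sum had a median of 9.23 TPM and a highest value of 69.1 TPM, against medians of 3.63 TPM in SiglecH-Ly6C- pre-DC and 92.8 TPM in cMoP. Retnlg, Mmp8 and Mmp9 were at 0 in all 68 cells. The sums for the erythroid and the basophil and mast cell lists had a median of 0 TPM. Those for the T and NK cell, plasma cell and platelet lists had medians of 1.58, 1.58 and 0.57 TPM, and in single cells they reached 1211, 811.85 and 576 TPM. For these 5 lists and the early lymphoid list no member differed by 2 or more from either pre-DC gate. Of 12 multipotency genes 7 were lower than in SiglecH-Ly6C- pre-DC, 1 of them by 2 or more: Kit, the stem cell factor receptor, at -3.03. The early lymphoid sum had a median of 1133 TPM here and 612 TPM in SiglecH-Ly6C- pre-DC, with 1 of its 13 genes in 50% or more of the cells. That gene was Ighm, an immunoglobulin heavy chain gene, with a mean of 9.07 ± 2.57 here and 8.20 ± 2.55 in SiglecH-Ly6C- pre-DC. Of 12 cDC genes shared by both types, 4 were higher and 7 lower than in SiglecH-Ly6C- pre-DC (median -0.08), with Id2 the only one past 2. Of 30 transcription factors 18 were higher and 11 lower in that comparison (median 0.12), with 4 higher and 3 lower by 2 or more.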

How the data were processed

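Single-cell mRNA libraries of 614 sorted cells were used, 68 of them in the gate described. The authors deposited TPM for each gene symbol and cell. Per the submitters' processing notes RSEM 1.2.19 and the build GRCm38 were used. Which aligner was run, and on which annotation, is not given in the sources used here. Totals per cell lay between 997617 and 1000000, so a level is a share of the cell's transcripts and rises when others are absent. TPM keep no counts, and the counting precision of a level is unknown.

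Groups came from the cell population label. The 3 comparison gates were chosen as nearest by sort label or lineage. Levels are means of log2(TPM + 1) over cells, with a pseudocount of 1, and differences are between gate means. As each gate is 1 sample, no p-value or SE was computed, and cells are not replicates. The SD is the spread over cells, and 95% intervals of shares of cells are exact (Clopper-Pearson), while the upper limit for a share of 0 is 3 cells of the total. Counted were genes that reached 1 TPM in 20% of either gate, and a difference of 2 or more was called. Doublets were not called. Instead, some of the values were recomputed without the cells of each gate (5%) that had most genes.

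The members and the 23 gene lists were chosen with earlier results of these data known. Genes named are the 8 markers, list members, and 10 per direction and comparison by size of difference among genes in 50% or more of the cells of the higher gate. Also named are the 10 with the largest margin, the 10 with the highest SD in 30 to 70% of cells and the 10 most positively correlated with Cd209a and with Lyz2. Predicted genes, pseudogenes, mitochondrial, ribosomal, sex-linked, antigen receptor and sort marker genes were left out of these rankings. Cysltr1 and the microglia list were chosen after their values were seen. Of the list members, Rab7b and Hbb-b1 were not analysed here. Some genes that these rules name are not reported here.

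Gene positions came from GENCODE M21, which held 91.2% of 43280 symbols, and start regions from RefSeq on GRCm38.p6, matched by symbol for 8 of 8 markers. The steps were tested on simulated data made by dividing this gate and changing 200 of 2977 genes 8-fold, in which 10 of 10 named genes per direction were changed ones. Alternatives were other pseudocounts, the log2 of the mean TPM, size factors, cell subsets, filters and thresholds. Scripts ran on scipy 1.17.1, matplotlib 3.10.9, pandas 2.3.3, numpy 2.4.6 and Python 3.11.15.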

Additional observations from a re-analysis of the deposited data

How the results depend on the processing

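Each list median, gene count, share and named difference was recomputed under the alternatives. Of the list medians, counts and shares, 165 values kept their direction and stayed within their spread, 27 moved further and 7 turned sign. The cDC2, monocyte, pDC and MHC class II medians kept their sign in all 3 comparisons under all settings run. The cDC1 median against SiglecH-Ly6C- pre-DC was -1.47 with a pseudocount of 10. The cDC1 medians near 0 turned positive. Against SiglecH+Ly6C+ pre-DC this was 0.66 with the log2 of the mean TPM and 0.11 with TPM under 10 set to 0. Against cMoP it was 0.027 with a pseudocount of 10, 1.04 with the log2 of the mean TPM, 0.055 without the 5% of cells with most genes, 0.091 in the cells that had Y-linked but not Xist transcripts and 0.053 with TPM under 10 set to 0. With the log2 of the mean TPM the cDC2 and pDC medians against cMoP were 1.23 and 1.43. The cause of these shifts was not tested.

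The share of genes called depended on the scale. At a difference of 1 or more, 8.11% were higher and 5.45% lower than in SiglecH-Ly6C- pre-DC, 5.23% and 6.21% than in SiglecH+Ly6C+ pre-DC, and 3.07% and 42.6% than in cMoP. With a pseudocount of 0.1 these shares were 3.92% and 2.47%, 2.36% and 2.14%, and 1.85% and 36.2%. With a pseudocount of 10 they were 0.287% and 0.311%, 0.207% and 0.0806%, and 0.436% and 2.59%. Pseudocounts of 0.1 and 10 and the log2 of the mean TPM moved the median of all genes against cMoP by -0.63, 0.51 and 0.71. Cd209a was in 91.2% and 83.8% of the cells at 10 and 100 TPM, Lyz2 in 80.9% and 67.6%, and both in 73.5% and 57.4%.

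Of the values for single genes, 64 moved by at least their spread and 2 turned sign. Klf4 against SiglecH+Ly6C+ pre-DC was -0.46 without the cells with Siglech, and Lyz2 against cMoP was 0.049 with the log2 of the mean TPM. Of the 60 largest differences (10 per direction and comparison) 29 shrank by more than 1.5 times with the log2 of the mean TPM and 34 with a pseudocount of 10. In each case 6 were then under 2, and none turned sign. Setting TPM under 10 to 0, and shares without the cells with Siglech, were chosen after seeing the data. In these 4 gates 0 cells had Xist without a Y-linked transcript, so that subset was not run. No paired analysis was possible because each gate is 1 sample and no label pairs its cells with those of another gate, and for the same reason no replicate could be left out. All cells of these 4 gates passed the minimum of 2000 genes. The number of animals is unknown, and the unknown depth limits the reading of low levels.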
